A study of Bubalus bubalis with 2 samples.

Results

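The 78 genes described here act along the secretory pathway or on the collagen that passes through it. They were chosen by symbol, from the 20905 rows of the deposited gene table, as the signal recognition particle, the translocation channel, signal peptidase, the glycosylation subunits RPN1 and RPN2, the protein disulfide isomerases, CALR, CANX, the COPII and COPI coats, the TMED and KDELR cargo receptors, the prolyl and lysyl hydroxylases of collagen, and the lysyl oxidases. The rule uses symbols alone and no measured value, but these genes and the lists of other genes below were chosen with earlier results of these data known. The study measured cell-free total RNA in saliva of Murrah water buffalo, a dairy breed of the river type. There was 1 library labelled Estrus, the stage of sexual receptivity, and 1 labelled Diestrus, the stage in which the corpus luteum is active. The labels give no treatment, age or number of animals, nor whether a library came from 1 animal or from a pool. With 1 library per stage there is no spread between replicates, so every difference below is a description of these 2 libraries, with no test and no p-value of its own.

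Proteins bound for secretion are recognised as they leave the ribosome, threaded through a channel into the endoplasmic reticulum (ER), cleaved, glycosylated and folded. COPII-coated vesicles carry them to the Golgi, and COPI-coated vesicles return escaped ER proteins and receptors. Collagen has its own steps: prolines and lysines are hydroxylated inside the ER, which stabilises the triple helix and prepares cross-links, and lysyl oxidases make those cross-links outside the cell. Fibroblasts make the most collagen, while salivary gland acini and plasma cells are classic examples of cells devoted to secretion.

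Levels are FPKM (fragments per kilobase of transcript scaled to the number of mapped fragments), so levels of different genes can be set side by side. Before each ratio of estrus to diestrus was taken, 1 FPKM was added to both values as a pseudocount. This makes ratios of low genes too small, and log2 ratios and folds below are all on that log2(FPKM + 1) scale. A gene was counted when its mean over both libraries was at least 1 FPKM and 2-fold was the smallest difference called. On short loci, 40 of 1075 values at estrus and 107 of 1237 at diestrus lay on steps that put 1 fragment per kb at 0.233 and 1.25 FPKM. By the authors' scaling, which may have rescaled totals between libraries, the diestrus library was thus the shallower, and values under 3.75 FPKM there, or under 0.699 FPKM in estrus, correspond to fewer than 3 fragments per kb. Every number of fragments per kb below is an estimate under that condition. Markers of salivary gland secretion were at 0 in both libraries on 12 of 16 rows, and the 4 counted genes were divided into 2 higher, 1 lower and 1 within 2-fold, with CST6 at 4786 against 1471 FPKM. Neutrophil markers were at 0 in both on 12 of 14 rows, and the 2 counted genes were lower in estrus. Plasma cell markers were at 0 in both on 2 of 7 rows. Of 4 counted genes 3 were higher and 0 lower, with a median log2 ratio of 1.46. Of the higher genes, PRDM1 and POU2AF1 were at 0.263 and 0 FPKM in diestrus, under 3 fragments per kb. XBP1, of the highest mean, stood at 114 FPKM at estrus and 208 at diestrus, within 2-fold. The list summed to 273 FPKM at estrus and 274 at diestrus. Fibroblast and extracellular matrix markers were counted on 19 of 20 rows and summed to 24541 FPKM at estrus and 19601 at diestrus, with 4 higher, 5 lower and 10 within 2-fold. Oral squamous epithelium markers had 2 of 10 counted genes higher and 6 lower in estrus, yet summed to 30287 FPKM at estrus and 1104 at diestrus, since KRT6A alone stood at 30046 against 323 FPKM. Beside these marker counts, 31.3% of all counted genes were higher and 33.1% lower. The part of these cell types in the results below was not tested, and fewer cells of a type and less RNA per cell cannot be told apart.

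Of the 78 members, 60 were above 0 in both libraries, 10 were listed at 0 in both, 7 at 0 in estrus only and 1 at 0 in diestrus only. By comparison, 49.4% of all rows were at 0 in both libraries. A listed 0 can be a failed estimate and is not read as absence. The filter on low values left 60 counted members, of which 56 were above 0 in both libraries, with a median of 33.2 FPKM at estrus and 23.6 at diestrus, against 7.32 and 7.72 FPKM for all counted genes. The members together held 0.941% of all FPKM in estrus and 0.832% in diestrus.

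Of the 60 counted members, 23 were at least 2-fold higher in estrus, 11 were lower and 26 lay within 2-fold. That is 38.3% higher, against a background of 31.3% of the 8269 counted genes, 18.3% lower, against 33.1%, and 43.3% within 2-fold, against 35.5%. The median log2 ratio was 0.50 for the members and -0.016 for all counted genes, and with equal FPKM sums the first turned to -0.37 and the second to -0.80. The background shares differed with level. Among genes with a mean of at least 100 FPKM, 43.7% were higher, 17.3% lower and 39% within 2-fold. Of the 14 members at that level 8 were higher, 0 lower and 6 within 2-fold, or 57.1%, 0% and 42.9%. Among genes of 10 to 100 FPKM, 37.4% were higher, 25.7% lower and 36.9% within 2-fold, and of 28 members 10 were higher, 5 lower and 13 within 2-fold, or 35.7%, 17.9% and 46.4%. Among counted genes under 10 FPKM the order was the other way, with 24.7% higher, 41.4% lower and 33.9% within 2-fold, and of 18 members 5 were higher, 6 lower and 7 within 2-fold, or 27.8%, 33.3% and 38.9%. With equal FPKM sums, 16 of the 23 higher members no longer passed 2-fold. That left 7 of 60 higher and made 20 lower, against 19.1% and 45.9% of all counted genes. Each scaling tried lowers estrus against diestrus, so it cannot undo a call of lower. Under every alternative that gave a member a value, a 4-fold threshold included, 6 of the 23 higher and 1 of the 11 lower members kept their call. That 1 lower member was SRP19, listed at 0 in estrus, a value that no scaling can move. Among the 56 counted members above 0 in both libraries, 8 were lower. With the values as deposited, the share of higher members at 10 to 100 FPKM was thus near that of other genes of like level. At 100 FPKM or more the share of higher members was above that of other genes. The share of lower members was below that of other genes at each of these levels. With few members per level and no test, these counts do not set the members apart as a whole.

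**Figure D1:**
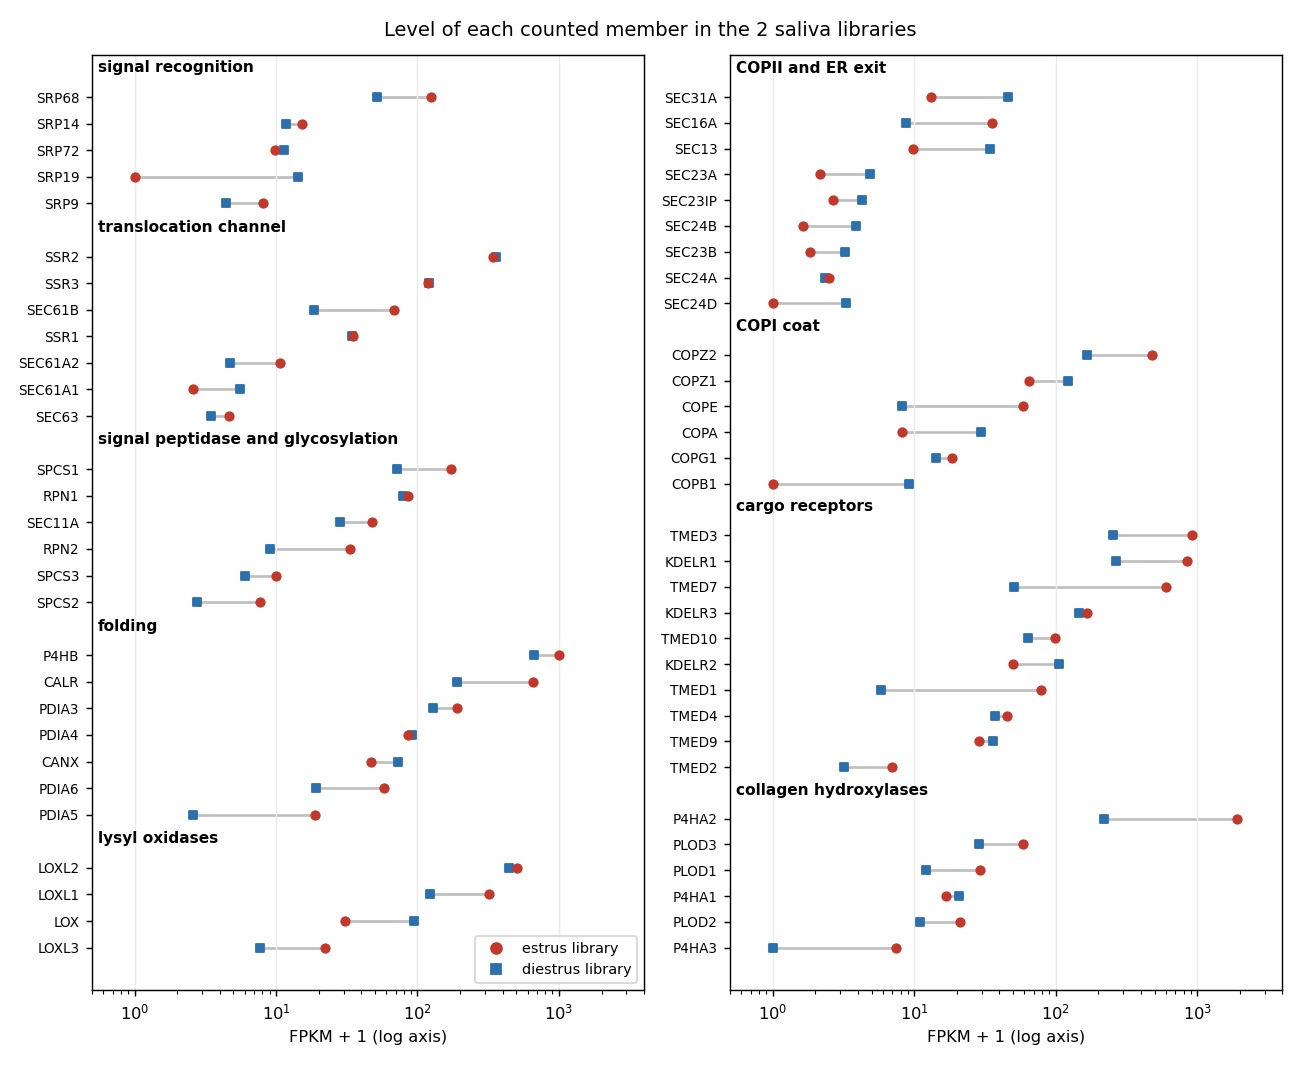
Level of the 60 counted members, in FPKM + 1 on a log axis, with the estrus library as red circles, the diestrus library as blue squares and a grey line joining the values of a gene; a gene listed at 0 sits at 1. P4HA2, TMED7, TMED1, COPE and PDIA5 lie far to the right in estrus, SRP19, COPB1, COPA, SEC13, SEC31A and LOX lie to the right in diestrus, and SSR1, SSR2 and SSR3 coincide.

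Of the enzymes that hydroxylate collagen, 4 of 6 were higher in estrus, 0 lower and 2 within 2-fold. That is 66.7% higher and 0% lower, against 31.3% and 33.1% of all counted genes. Among all genes with a mean of at least 10 FPKM, 38.7% were higher and 24% lower. P4HA2, the alpha subunit of a collagen prolyl 4-hydroxylase (chromosome 7, 23480315 to 23513315 in the table's coordinates), stood at 1901 FPKM at estrus and 218 at diestrus, a log2 ratio of 3.12 or 8.70-fold. It was the most abundant member in estrus. P4HA1, the alpha subunit of the more widely made form of the enzyme, stood at 15.8 FPKM at estrus and 19.7 at diestrus, within 2-fold. P4HA3 was at 6.43 FPKM in estrus and listed at 0 in diestrus, so no fold is given. P4HA2 therefore made up 98.8% of the FPKM of the 3 alpha subunits in estrus and 91.7% in diestrus, while the share of P4HA1 was 0.820% and 8.31%. Shares within a library do not depend on how the libraries are scaled.

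The beta subunit of prolyl 4-hydroxylase is P4HB, which is also the main protein disulfide isomerase of the ER. P4HB stood at 1006 FPKM at estrus and 660.3 at diestrus, a log2 ratio of 0.61, within 2-fold. The alpha subunits together stood at 1924 FPKM in estrus, 1.91 times P4HB, and at 237 FPKM in diestrus, 0.360 times P4HB. The order of alpha and beta subunits was thus opposite in the libraries. P4HB also serves as an isomerase outside this enzyme, so the ratio is not a ratio of assembled subunits.

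The lysyl hydroxylases differed less, and all 3 had higher values in estrus. PLOD1, which hydroxylates lysines of the collagen helix, stood at 27.96 FPKM at estrus and 11.003 at diestrus, a log2 ratio of 1.27. PLOD3, which also adds sugars to hydroxylysine, stood at 57.2 against 27.7 FPKM, a log2 ratio of 1.02 and just past 2-fold. PLOD2, which acts on the collagen telopeptides, stood at 20.02 against 10.01 FPKM, a log2 ratio of 0.93 and just short of it. Their median log2 ratio of 1.02 moved to 0.64 with equal upper quartiles and to 0.080 with equal FPKM sums, and no PLOD gene passed 2-fold under either. With equal FPKM sums the collagen hydroxylases as a group had 2 genes higher and 1 lower, P4HA1 at -1.19. The mix of the family was alike in the libraries, with PLOD3 at 54.4% in estrus and 56.9% in diestrus, PLOD1 at 26.6% and 22.6%, and PLOD2 at 19.0% and 20.5%.

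The lysyl oxidases, which cross-link collagen and elastin outside the cell, went in different directions. LOX, the founding member of the family, stood at 29.8 FPKM at estrus and 93.7 at diestrus, a log2 ratio of -1.62. LOXL1, known for its role in elastic fibres, stood at 319.7 FPKM at estrus against 121 at diestrus, a log2 ratio of 1.40. LOXL3 stood at 21.3 against 6.72 FPKM, a log2 ratio of 1.53, and its locus is also given to another row. LOXL2, which cross-links collagen IV of basement membranes, was the most abundant of the family in both libraries, at 500.1 against 443 FPKM, within 2-fold. LOXL4 stayed under the filter, at 1.75 FPKM at estrus and 0.128 at diestrus. Of the family's FPKM, LOX held 3.42% in estrus and 14.1% in diestrus, and LOXL1 held 36.6% and 18.2%. With equal FPKM sums neither LOXL1 nor LOXL3 passed 2-fold.

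**Figure D2:**
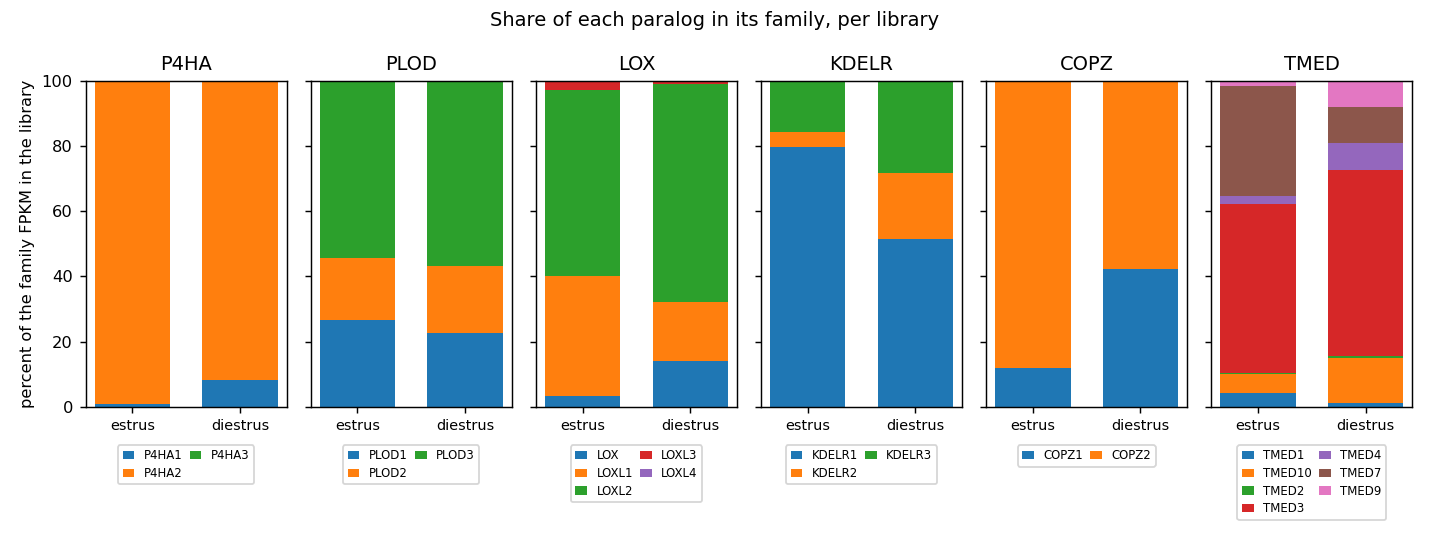
Share of each paralog, in percent of the summed FPKM of its family, in the estrus and the diestrus library, for 6 families; stacked colours are paralogs, named under each panel. P4HA2 fills nearly all of the P4HA bars, the PLOD bars are alike, KDELR1 and COPZ2 hold larger shares in estrus, LOX holds a larger share in diestrus, and TMED7 takes 33.7% of the TMED bar in estrus against 11.2% in diestrus.

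The cargo receptors held several of the most abundant members. The TMED proteins, transmembrane receptors that cycle between the ER and the Golgi, had 7 of 10 rows counted. Of these, 4 were higher in estrus, 0 lower and 3 within 2-fold. That is 57.1% higher and 0% lower, against 31.3% and 33.1% of all counted genes. At a mean of at least 10 FPKM these background shares were 38.7% and 24%. TMED3 stood at 922 FPKM at estrus and 254 at diestrus, a log2 ratio of 1.85. TMED7 stood at 597 against 49.8 FPKM, a log2 ratio of 3.55 or 11.8-fold, and TMED1 at 77.3 against 4.77 FPKM, a log2 ratio of 3.76 or 13.6-fold. The diestrus value of TMED1 rests on about 3.81 fragments per kb, so the size of its ratio is uncertain, whereas that of TMED7 rests on about 39.8. TMED2, of lower level at 5.97 against 2.17 FPKM, was the remaining higher member, with its diestrus value under 3 fragments per kb.

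TMED10 stood at 98.4 FPKM at estrus and 62.3 at diestrus, TMED4 at 44.0 and 36.1 FPKM, and TMED9 at 27.8 and 35.0 FPKM, all within 2-fold. TMED5, TMED6 and TMED8 were listed at 0 in both libraries. Although each scaling lowers estrus, TMED1 and TMED7 were at least 2-fold higher under every scaling tried. The TMED median log2 ratio of 1.14 was 0.36 with equal FPKM sums.

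The KDEL receptors catch ER proteins that have escaped to the Golgi and send them back. KDELR1 stood at 850.0 FPKM at estrus and 264 at diestrus, a log2 ratio of 1.68, and KDELR2 at 48.9 against 104 FPKM, a log2 ratio of -1.07. KDELR3 stood at 166 against 145 FPKM, within 2-fold. These closely related genes were apart in opposite directions: KDELR1 held 79.8% of the family's FPKM in estrus and 51.5% in diestrus, while KDELR2 held 4.59% and 20.2%. Close paralogs can share reads, so their split can carry an error that the table does not show. With equal FPKM sums KDELR1 no longer passed 2-fold, and with a pseudocount of 10 FPKM KDELR2 no longer did, at -0.95.

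Among the folding members, CALR and CANX are the lectin chaperones that hold newly glycosylated proteins, CALR in the ER lumen and CANX in its membrane. CALR stood at 658 FPKM at estrus and 189.6 at diestrus, a log2 ratio of 1.79, whereas CANX stood at 45.8 against 71.2 FPKM, a log2 ratio of -0.63 and within 2-fold. CALR was thus 14.4 times CANX in estrus and 2.66 times CANX in diestrus, on the FPKM scale. PDIA3, the isomerase that works with both chaperones, stood at 189 against 128 FPKM, within 2-fold, on a locus also given to another row.

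The other isomerases were mostly of lower level. PDIA4 stood at 84.6 FPKM at estrus and 90.2 at diestrus. PDIA6 stood at 57.4 against 18.2 FPKM, a log2 ratio of 1.60, and PDIA5 at 17.7 against 1.57 FPKM, a log2 ratio of 2.86, with the diestrus value of PDIA5 under 3 fragments per kb. PDIA2, an isomerase best known from pancreas, was listed at 0 in both libraries. Among the isomerases P4HB held 74.2% of the FPKM in estrus and 73.5% in diestrus, and PDIA3 held 14.0% and 14.3%. Of the 7 counted folding members 3 were higher and 0 lower, or 42.9% and 0%, against 31.3% and 33.1% of all counted genes. At a mean of at least 10 FPKM these background shares were 38.7% and 24%. The median log2 ratio of the folding members, 0.61, turned to -0.35 with equal FPKM sums.

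The translocon-associated protein complex assists the channel for some signal sequences, and its counted subunits had close values in both libraries as deposited, although with equal FPKM sums their median log2 ratio moved from -0.028 to -0.98 and SSR2 was at -1.02. SSR2 stood at 340.4 FPKM at estrus and 355 at diestrus, SSR3 at 118 and 120.1 FPKM, and SSR1 at 33.9 and 33.3 FPKM, with log2 ratios between -0.061 and 0.023. SSR2 was 2.89 times SSR3 in estrus and 2.96 times in diestrus. SSR4, the remaining subunit, was listed at 0 in both libraries, as was SEC61G, the gamma subunit of the channel.

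SEC61A1 and SEC61A2 encode alternative forms of the channel's pore subunit. SEC61A1 stood at 1.60 FPKM at estrus and 4.56 at diestrus, a log2 ratio of -1.09, and SEC61A2 at 9.61 against 3.73 FPKM, a log2 ratio of 1.16. These levels are low, with about 3.64 and 2.98 fragments per kb in diestrus. SEC61B, the beta subunit, stood at 67.3 against 17.6 FPKM, a log2 ratio of 1.88. SEC63, an ER membrane partner of the channel, stood at 3.68 against 2.45 FPKM, and SEC62, its partner, was listed at 0 in estrus and at 1.19 FPKM in diestrus.

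The signal recognition particle binds the signal sequence and docks the ribosome at the ER. SRP68 stood at 123 FPKM at estrus and 50.4 at diestrus, a log2 ratio of 1.27, while its binding partner SRP72 stood at 8.84 against 10.3 FPKM. SRP14 stood at 14.3 against 10.8 FPKM and SRP9, with which it forms the domain that slows elongation, at 7.04 against 3.46 FPKM. SRP19, which binds the particle's RNA, was listed at 0 in estrus and at 13.4 FPKM in diestrus. SRP54, the subunit that binds the signal sequence, was listed at 0 in both libraries. The counted genes of this particle were divided, with 1 higher, 1 lower and 3 within 2-fold. That is 20% higher and 20% lower, against 31.3% and 33.1% of all counted genes.

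Signal peptidase cuts the signal sequence off. SPCS1 stood at 173 FPKM at estrus and 70.4 at diestrus, a log2 ratio of 1.28. SEC11A, a catalytic subunit, stood at 46.5 against 27.5 FPKM, within 2-fold, and SEC11C, the alternative catalytic subunit, was listed at 0 in both. SPCS2 and SPCS3 were lower in level, at 6.65 against 1.74 FPKM and at 9.05 against 5.07 FPKM. The diestrus value of SPCS2 was under 3 fragments per kb. The oligosaccharyltransferase subunit RPN1 stood at 85.3 against 78.3 FPKM, within 2-fold, and RPN2, of the same complex, at 32.4 against 8.11 FPKM, a log2 ratio of 1.88. Of these 6 counted genes 3 were higher and 0 lower, or 50% and 0%, against 31.3% and 33.1% of all counted genes. At a mean of at least 10 FPKM these background shares were 38.7% and 24%. With equal FPKM sums none of the 6 passed 2-fold.

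The COPII coat was the group with most members lower in estrus. Of its 9 subunit genes, SEC13, SEC23A, SEC23B, SEC24A to SEC24D, SEC31A and SEC31B, 7 were counted, with 0 higher, 5 lower and 2 within 2-fold, and a median log2 ratio of -1.26. That is 0% higher and 71.4% lower, against 31.3% and 33.1% of all counted genes. The means of 5 of the 7 were under 10 FPKM, the level at which 24.7% of counted genes were higher and 41.4% lower. At 10 to 100 FPKM, the level of SEC13 and SEC31A, 37.4% of all genes were higher and 25.7% lower. With a pseudocount of 10 FPKM SEC23A, SEC24B and SEC24D lost the call, at log2 ratios of -0.31, -0.28 and -0.30, which left SEC13 and SEC31A. SEC31A, of the outer cage, stood at 12.2 FPKM at estrus and 45.3 at diestrus, and SEC13, its partner there and a nuclear pore protein, at 8.74 against 33.2 FPKM. Their log2 ratios were both -1.81. These are the best measured genes of the coat, with about 36.2 and 26.5 fragments per kb in diestrus.

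The inner coat was of low level in both libraries. SEC23A stood at 1.16 FPKM at estrus and 3.83 at diestrus, on a locus also given to another row, and SEC23B at 0.821 against 2.26 FPKM. SEC24B stood at 0.622 against 2.87 FPKM and SEC24D, a cargo-selecting subunit, was listed at 0 against 2.29 FPKM, while SEC24A stood at 1.49 against 1.33 FPKM. SEC24C and SEC31B did not pass the filter, at 0.768 against 0.613 FPKM and at 1.54 against 0.284 FPKM. These diestrus values are near or under 3 fragments per kb. SEC16A, a scaffold of the ER sites where the coat assembles, was the only counted COPII and ER exit member that was higher in estrus. It stood at 34.3 FPKM at estrus and 7.79 at diestrus, a log2 ratio of 2.01. SEC23IP, which binds SEC23, stood at 1.67 against 3.27 FPKM. SEC16B and the SNARE family gene SEC22A were listed at 0 in both libraries, and SEC22B and SEC22C at 0 in estrus, with 0.321 and 1.97 FPKM in diestrus.

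The subunits of the COPI coat, which form a stable complex, were far from even in either library. COPZ2, a zeta subunit, stood at 478 FPKM at estrus and 166 at diestrus, a log2 ratio of 1.52, and its paralog COPZ1 at 64.1 against 122 FPKM, a log2 ratio of -0.91. COPZ2 held 88.2% of the zeta FPKM in estrus and 57.7% in diestrus. COPE, the epsilon subunit, stood at 57.7 against 7.20 FPKM, a log2 ratio of 2.84. COPA, the alpha subunit, stood at 7.15 against 28.8 FPKM, a log2 ratio of -1.87, with about 23.02 fragments per kb in diestrus.

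COPB1, the beta subunit, was listed at 0 in estrus and at 8.17 FPKM in diestrus, and COPB2, the beta prime subunit, at 0 and 1.28 FPKM, on a locus also given to another row. COPG1, a gamma subunit, stood at 17.6 against 13.3 FPKM and COPG2 at 0.438 against 0.808 FPKM. Of 6 counted genes 2 were higher, 2 lower and 2 within 2-fold. These shares of 33.3% each were near the 31.3%, 33.1% and 35.5% of all counted genes.

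**Figure D3:**
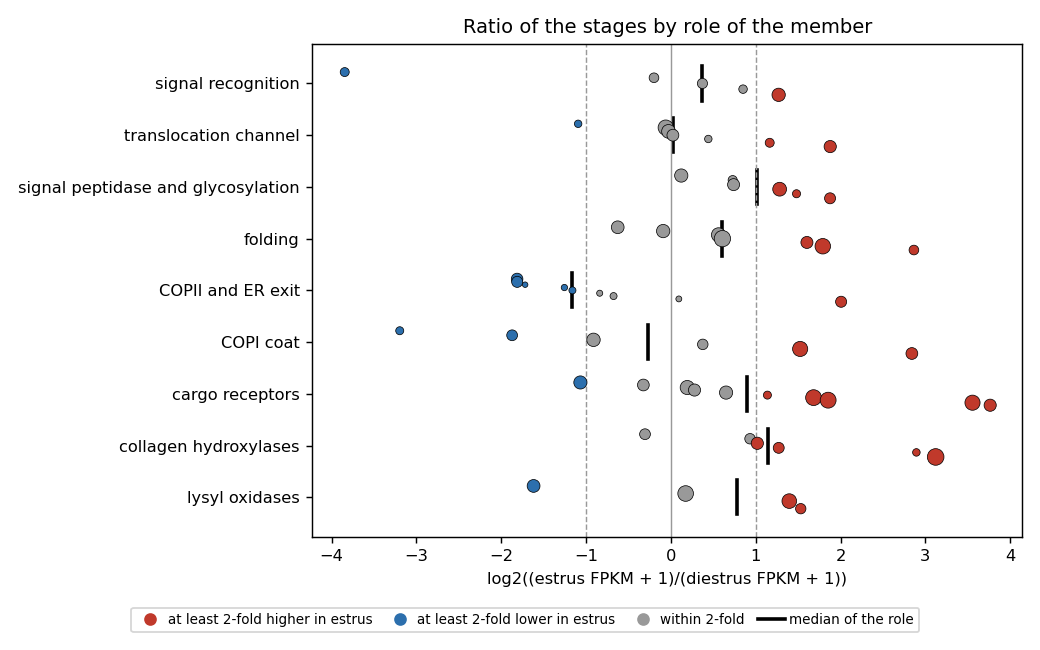
Log2 ratio of estrus over diestrus, with a pseudocount of 1 FPKM, for each counted member by role; red points are at least 2-fold higher in estrus, blue points at least 2-fold lower and grey points within 2-fold, larger points have a higher mean level, black bars are medians and dashed lines mark 2-fold. The median of COPII and ER exit lies at -1.16 and that of the collagen hydroxylases at 1.14, with the values as deposited; equal FPKM sums move these medians to -1.55 and 0.22, and turn those of signal recognition, translocation, folding, and lysyl oxidases below 0.

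Locus span, which is not transcript length, differed between the called members. The 11 lower members had a median span of 35.7 kb, the 23 higher members 21.2 kb and the 26 others 18.7 kb. Over all counted genes the medians were 16.2, 13.2 and 17.1 kb. Across the 60 counted members the ratio had a Spearman rho of -0.22 with span and 0.32 with mean FPKM, against -0.029 and 0.21 across the 8269 counted genes. These are descriptions across genes of the same 2 libraries, and genes are not replicates. The order of levels was shared between the libraries, with a rho of 0.83 across the 60 counted members and 0.46 across all counted genes. These sets differ in level, with medians of 33.2 and 23.6 FPKM for the members against 7.32 and 7.72 FPKM for all counted genes. The gap between the 2 rho values is therefore not read as a trait of the members. The members lay on 25 chromosomes.

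Of the 78 members, 21 in the authors' deposited table had a p-value under 1, all of them with a mean of at least 61.8 FPKM, and 0 had a p-value under 0.05, against 3.91% of the 1253 genes with a p-value under 1. The smallest p-value of a member in the authors' deposited table was 0.150 for P4HA2, with a q-value of 0.797. TMED7 followed with a p-value of 0.222 in the authors' deposited table, and the largest was 0.944 for SSR2. These p-values come from a comparison of 1 library per stage.

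Other genes of the same steps were read from lists of each step, which were chosen with earlier results of these data known. Of the genes that modify and process collagen, 17 of 23 rows were counted, with 9 higher in estrus, 4 lower and 4 within 2-fold. That is 52.9% higher and 23.5% lower, against 31.3% and 33.1% of all counted genes. The list is of higher level, with medians of 70.2 FPKM at estrus and 25.0 at diestrus. Among all genes with a mean of at least 10 FPKM, 38.7% were higher and 24% lower, so the lower share of the list was near that background. SERPINH1, the collagen-specific chaperone, stood at 1064 FPKM at estrus and 1217 at diestrus, and SPARC, a collagen-binding matrix protein, at 3903 against 3815 FPKM, both within 2-fold. P3H4, which forms a complex with lysyl and prolyl 3-hydroxylases, stood at 609 against 73.8 FPKM, a log2 ratio of 3.03. FKBP10, a collagen prolyl isomerase, stood at 225 against 49.7 FPKM, and PCOLCE2, an enhancer of procollagen cleavage, at 114 against 7.96 FPKM, a log2 ratio of 3.68. The list's median log2 ratio of 1.01 was 0.079 with equal FPKM sums.

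The ER folding list had 6 of 18 counted genes higher, 7 lower and 5 within 2-fold, and a median log2 ratio of -0.47. That is 33.3% higher and 38.9% lower, near the 31.3% and 33.1% of all counted genes. HSPA5, the main Hsp70 chaperone of the ER, stood at 311 FPKM at estrus and 649.7 at diestrus, a log2 ratio of -1.06. PPIB, a cyclophilin that works on collagen, stood at 813 against 153 FPKM, a log2 ratio of 2.41, and ERP29, a relative of the disulfide isomerases, at 120.2 against 16.5 FPKM, a log2 ratio of 2.79. HSP90B1, the Hsp90 of the ER, stood at 105 against 143 FPKM, within 2-fold. CALR and HSPA5, which are both retained by the KDEL receptors, were thus on opposite sides of 2-fold with the values as deposited.

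Among the remaining COPII and ER exit genes, 4 of 17 counted were higher, 7 lower and 6 within 2-fold. That is 23.5% higher and 41.2% lower, against 31.3% and 33.1% of all counted genes. YIF1A, a membrane protein of ER to Golgi traffic, stood at 493 FPKM at estrus and 23.96 at diestrus, a log2 ratio of 4.31. LMAN2, a cargo lectin, stood at 74.0 against 5.42 FPKM and PREB, the exchange factor that starts COPII assembly, at 57.5 against 3.67 FPKM. Their log2 ratios were 3.55 and 3.65, and the diestrus value of PREB was under 3 fragments per kb. Both were chosen here after their values were seen, from a list with more lower than higher genes. TRAPPC1, of the tethering complex of the Golgi, stood at 136 against 139.8 FPKM and ERGIC1, of the intermediate compartment, at 47.5 against 158 FPKM, a log2 ratio of -1.71. SAR1B, the GTPase that recruits the coat, was listed at 0 in estrus and at 5.07 FPKM in diestrus, and was also named after its value was seen.

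The COPI and Golgi list had 5 of 16 counted genes higher, 5 lower and 6 within 2-fold. The higher and lower shares, 31.25% each, were near the 31.3% and 33.1% of all counted genes. ARF1, the GTPase that recruits COPI, stood at 466 FPKM at estrus and 207 at diestrus, a log2 ratio of 1.17, while RAB2A, a GTPase of ER and Golgi traffic, stood at 29.1 against 190.5 FPKM, a log2 ratio of -2.67. GORASP2, which stacks Golgi membranes, stood at 65.0 against 65.2 FPKM. Of the oligosaccharyltransferase genes outside the members, 2 of 9 rows were counted and both were higher, DAD1 at 243 against 66.7 FPKM and OSTC at 48.8 against 16.7 FPKM. With equal FPKM sums neither passed 2-fold.

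The translocon and signal recognition list had 3 of 6 rows counted. SRPRB, a subunit of the receptor of the signal recognition particle, stood at 46.8 FPKM at estrus and 24.7 at diestrus, and SRPRA, the other subunit, at 1.37 against 6.47 FPKM. DNAJC1, an ER J-domain protein, was at 22.7 FPKM in estrus and listed at 0 in diestrus.

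**Figure D4:**
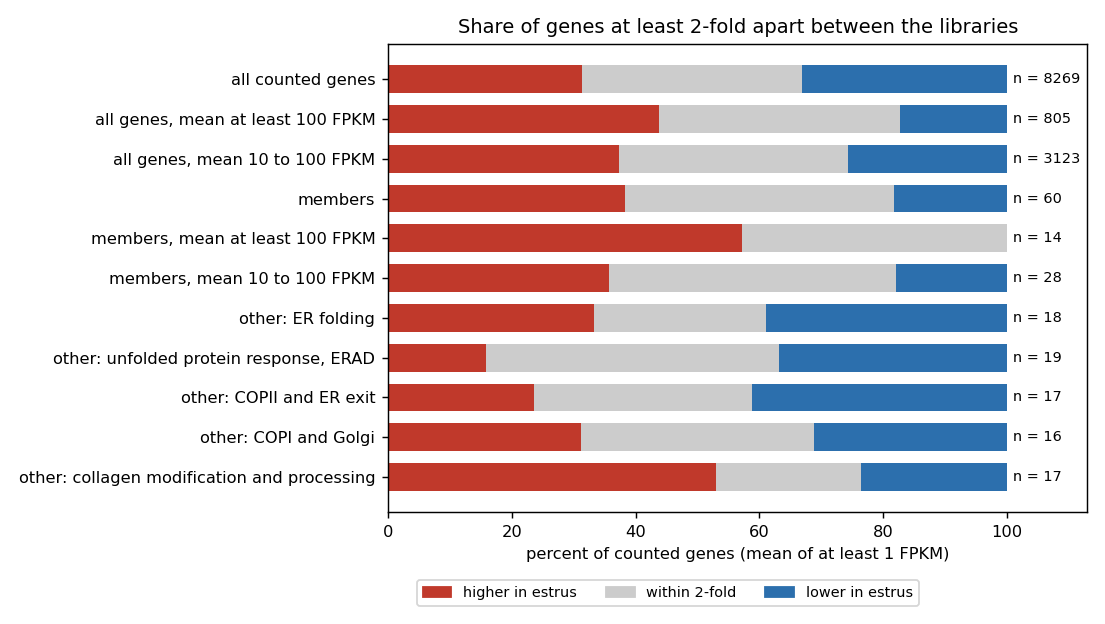
Percent of counted genes at least 2-fold higher in estrus (red), within 2-fold (grey) and at least 2-fold lower (blue), for all genes, for the members, and for the other gene lists with more than 3 counted genes; n is the number of counted genes. The members of 10 to 100 FPKM show 35.7% higher against 37.4% of all genes at that level, with the values as deposited. Those of at least 100 FPKM show 57.1% against 43.7%.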

How the data were processed

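Cell-free total RNA of saliva was sequenced from 1 Estrus and 1 Diestrus library, grouped by their stage label. Per the labels' protocols, an Illumina TruSeq RNA kit was used. The submitters' processing notes name TopHat, Bowtie, Cufflinks and Cuffdiff with no version, and the genome build is not given in the sources used here. FPKM values, log2 fold changes, p-values and q-values were deposited as made by the authors, per the file headers, and the last 3 were copied and not recomputed. The deposited log2 fold change was diestrus over estrus on all 7344 genes above 0 in both libraries, within 0.001.

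Ratios, counts and family shares were computed from FPKM with Python 3.11.15 and pandas 2.3.3. The 2-fold calls, without a pseudocount, and the depth estimate were tried on simulated data with known values. Family shares were not tried in this way. No count of fragments per gene was computed. Relative depth came from loci spanning 400 to 3000 bp, of which 40 of 1075 above 0 in estrus and 107 of 1237 in diestrus lay within 0.5% of 1 to 3 fragments, against a median of 2 on other steps. Positions come from the table and are printed as a browser shows them, counting from 1. Starts were read as counting from 0, because 120 of 124 short olfactory receptor loci then span a multiple of 3. Of the member symbols, 76 of 78 are in the RefSeq buffalo annotation NDDB_SH_1, which was used for names only.

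All 78 members are described, those with a mean of at least 10 FPKM by both values. From each other list the 3 counted genes of highest mean are named, and those at least 4-fold apart with a mean of at least 50 FPKM. LMAN2, PREB and SAR1B are named outside this rule, after their values were seen. The members and lists were chosen with earlier results of these data known.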

Additional observations from a re-analysis of the deposited data

How the results depend on the processing

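No paired analysis was possible because each stage has 1 library. Equal FPKM sums multiplied estrus values by 0.513. Of 60 members 7 were then higher in estrus and 20 lower, in place of 23 and 11. Among all counted genes 19.1% were then higher and 45.9% lower, so the share of higher members was below that background. The median log2 ratio of the members turned from 0.50 to -0.37, and that of all counted genes was -0.80. The other scalings (equal upper quartiles, equal medians, a trimmed mean of log ratios) gave 17 to 22 higher and 11 to 14 lower, with medians of 0.16 to 0.42. Of all counted genes these scalings had 25.8% to 30% higher and 34.1% to 38.1% lower. A pseudocount of 10 FPKM left 5 lower members, a mean of at least 10 FPKM left 5, and at least 3 fragments per kb in both libraries, chosen after seeing the data, left 7, fewer members being counted under both filters. With that pseudocount 11.8% of all counted genes were lower, and 24% of all genes with a mean of at least 10 FPKM. At 4-fold 7 members were higher and 2 lower, against 16.8% and 18.5% of all counted genes. The 2 lower were SRP19 and COPB1, both listed at 0 in estrus. No called member could change direction under the alternatives run, so the lack of such a change carries no information. The largest scaling shift, -0.96 in log2, was smaller than a 2-fold call requires. A change of pseudocount, filter or threshold cannot change the sign of a ratio. Of the 23 higher members 7 kept their call under every scaling, while calls of lower could not be lost, since all scalings lowered estrus against diestrus. Under every alternative that gave a member a value 6 of 23 higher and 1 of 11 lower members kept their call. The 1 lower member, SRP19, was dropped and not tested by the filters that need values above 0 in both libraries. With a mean of 6.69 FPKM, SRP19 was also dropped by the filter of a mean of at least 10 FPKM. Of the 34 called members 25 had at least 3 fragments per kb in both libraries.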

Other observations

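The unfolded protein response senses misfolded proteins in the ER, and ER-associated degradation removes them. Of 23 rows for these genes 19 were counted, with 3 higher in estrus, 7 lower and 9 within 2-fold, or 15.8% and 36.8% of those counted, against 31.3% and 33.1% of all counted genes. ATF4, a transcription factor of the stress response, stood at 220.4 FPKM at estrus and 418 at diestrus, and XBP1, which drives genes of secretory capacity, at 114 against 208 FPKM, both within 2-fold. DERL2, a channel component of degradation, stood at 128 against 57.5 FPKM, a log2 ratio of 1.14. The list's median log2 ratio was -0.87, and lay between -1.52 and -0.95 under the scalings tried. No p-value can be given with 1 library per stage.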
